A study of Mus musculus with 6 samples.

Results

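Barcodes carrying the transcripts of mature migratory dendritic cells were described in 6 single-cell RNA libraries of the 4T1 mammary carcinoma model. They were chosen by raw counts of unique molecular identifiers (UMIs), each standing for 1 captured RNA molecule. A barcode, which stands for 1 droplet, was a member when it had at least 300 genes, at most 20% mitochondrial UMIs, 2 or more UMIs of Ccr7, 3 or more of Ccl22 and Il12b together, and no UMI of Cd3d, Cd3e, Cd3g or Cd79a. This rule found 159 of 42259 kept barcodes (42902 in the files), with 32, 31 and 15 in shNC libraries 1 to 3 and 23, 25 and 33 in libraries 1 to 3 labelled shPgk1. The label did not hold for all of them, and 50 of the 159 had high levels of C1q. Pooled, these 50 had high levels of other macrophage genes and little Fscn1, although 19 of them held an Fscn1 UMI. The whole set is therefore called members here. Because Ccr7, Ccl22 and Il12b chose the members, their levels are a description only.

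The 3 shNC libraries carried a non-targeting short hairpin RNA and the 3 shPgk1-labelled libraries a hairpin against Pgk1, the gene of the glycolytic enzyme phosphoglycerate kinase 1. In both groups the labels describe 4T1 cells, a mouse mammary carcinoma line, transduced with lentivirus for 48 h and selected in puromycin at 2 µg/mL for 7 days, then loaded as suspensions of over 80% viable cells. The labels name no host animal, strain or age, although dendritic cells are not part of a carcinoma line. The group labelled shPgk1 is named by its label throughout, since Pgk1 was not lower in its keratin-high barcodes. These carry epithelial genes and are defined below. There Pgk1 stood at 246 ± 21.3 counts per 1000000 summed counts (CPM) in the shNC libraries. In the shPgk1-labelled ones it stood at 284 ± 38.8 CPM, and the groups overlapped (mean ± SD, n = 3 and 3). In the summed counts of members Pgk1 stood at 318, 307 and 335 CPM in shNC, against 246, 430 and 341 CPM. The labels place the hairpin in 4T1 cells, so levels in members cannot show whether it acted.

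Conventional dendritic cells take up antigen in tissues and, once activated, mature and move through lymph to draining nodes. CCR7 is the receptor that guides this movement along gradients of CCL19 and CCL21. Maturation lowers the synthesis of MHC class II while surface complexes are kept, raises costimulatory ligands for T cells, and engages NF-kB. CCL17 and CCL22 attract cells with the receptor CCR4, regulatory T cells among them, and IL-12, of which Il12b encodes the p40 subunit shared with IL-23, drives T helper 1 responses. In tumours such cells are known for carrying both T cell-activating and T cell-restraining molecules.

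The windows around the start sites of 4 of the genes that mark the cells are shown because the text returns to them: the chemokine genes Ccl22 and Ccl17, Il12b, and Fscn1, which encodes fascin, an actin-bundling protein of dendrites. Each runs from 250 bases before to 50 bases after the start, 5′ to 3′ on the plus strand (RefSeq, GRCm38.p6). Ccl22 lies at chr8:94745434-94745733, Ccl17 at chr8:94810203-94810502, Il12b at chr11:44399813-44400112 and Fscn1 at chr5:142960105-142960404. The windows of Ccl22 and Ccl17 start 64.8 kb apart. Capitals mark the only match to the motifs searched, the TATAAA of Fscn1, whose first base lies 31 bases before the start.
Ccl22: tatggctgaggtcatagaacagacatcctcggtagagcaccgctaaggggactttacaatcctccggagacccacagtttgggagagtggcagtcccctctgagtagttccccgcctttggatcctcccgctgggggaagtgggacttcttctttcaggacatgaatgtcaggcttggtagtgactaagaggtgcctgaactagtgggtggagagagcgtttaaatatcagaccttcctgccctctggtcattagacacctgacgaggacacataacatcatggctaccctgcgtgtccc
Ccl17: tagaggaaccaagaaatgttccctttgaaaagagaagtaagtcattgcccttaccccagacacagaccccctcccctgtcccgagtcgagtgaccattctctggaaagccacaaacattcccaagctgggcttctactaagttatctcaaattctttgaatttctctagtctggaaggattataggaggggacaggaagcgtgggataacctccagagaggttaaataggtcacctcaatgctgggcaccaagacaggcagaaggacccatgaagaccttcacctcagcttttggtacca
Il12b: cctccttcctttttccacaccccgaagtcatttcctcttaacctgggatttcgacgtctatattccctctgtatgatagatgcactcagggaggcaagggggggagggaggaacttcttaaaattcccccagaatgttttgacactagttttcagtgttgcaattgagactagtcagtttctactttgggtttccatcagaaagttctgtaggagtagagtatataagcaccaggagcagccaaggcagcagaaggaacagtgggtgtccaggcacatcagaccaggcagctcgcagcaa
Fscn1: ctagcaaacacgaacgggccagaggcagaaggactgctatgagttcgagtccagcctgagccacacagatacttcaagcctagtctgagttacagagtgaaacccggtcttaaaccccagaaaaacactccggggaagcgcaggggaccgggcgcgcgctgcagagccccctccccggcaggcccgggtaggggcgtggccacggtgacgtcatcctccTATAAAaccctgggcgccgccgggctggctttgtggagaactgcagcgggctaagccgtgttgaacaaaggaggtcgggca

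Both strands were searched for GGGANNTTC, the first 9 letters of a common NF-kB-type motif, and for TATAAA. No match of one can overlap a match of the other. RefSeq promoters were matched for 25 of the 30 leading genes described below, which have 30 windows. GGGANNTTC was in 0 of these 30 windows, against 3.94% of all 32851 windows. TATAAA was in 2 of 30 (Cd80 and Pik3r1), against 13.6% of all windows. In the list of NF-kB pathway genes and targets, 23 of 27 genes were matched and 3 of their 32 windows held GGGANNTTC, in Nfkb2 and Nfkbia. The Nfkb2 windows with a match overlap and share a site, so these windows are not separate cases. A match is a description of letters in a window and says nothing of binding.

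Total counts per library ran from 78778073 to 128933960, and the summed counts of members from 233147 to 631099. The smallest sum was that of shNC library 3, with 15 members. Members had a median of 15074 ± 808 UMIs in the shNC libraries, against 17244 ± 2581 UMIs in the shPgk1-labelled ones (mean of 3 library medians ± SD, n = 3 and 3; two-sided exact permutation test, p = 0.3). Mitochondrial UMIs of members, as a library median, made up 0.441 ± 0.0715% and 0.710 ± 0.0132%, with no overlap of the groups (exact permutation test, p = 0.1, the smallest that 3 against 3 libraries allow). The median depth of all kept barcodes also differed without overlap, at 9139 ± 927 and 11240 ± 698 UMIs (exact permutation test, p = 0.1). Nothing says that the libraries came from separate cultures or animals, so p-values measure only the spread between these samples. Libraries shared between 1234 and 1671 barcode names in each pair, but the names are running numbers and do not identify shared cells.

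The genes used by the rule set the members far apart from the rest. Ccr7 stood at 1377, 1343 and 1210 CPM in the shNC libraries, against 1103, 1094 and 1185 CPM in the shPgk1-labelled ones, and at 31.2 CPM in all other kept barcodes pooled. Ccl22 stood at 808, 1292 and 622 CPM and at 1009, 559 and 949 CPM, and was detected in 150 of 159 members. Il12b was uneven, at 331, 124 and 180 CPM and at 378, 140 and 261 CPM, with a UMI in 66 members (41.5%). Barcodes with 10 or more UMIs of Krt8 and Krt18 and no Ptprc UMI, which should lack these genes and so show free RNA, held an Il12b UMI in 0.391% of cases and a Ccl22 UMI in 2.63%. At the limits of the rule, 10 members had exactly 2 Ccr7 UMIs and 22 had exactly 3 UMIs of Ccl22 and Il12b. Just outside, 13 barcodes had 1 Ccr7 UMI, 45 had none, and 28 had 2 UMIs of Ccl22 and Il12b. Many more, 889 barcodes, had 2 or more Ccr7 UMIs but none of Ccl22 or Il12b, and 35.9% of these held an Fscn1 UMI. A further 74 barcodes were left out only by the T and B cell genes.

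Ccl17, which the rule did not use, was detected in 117 of 159 members (73.6%) and in 6.41% of keratin-high barcodes. It stood at 539, 1494 and 626 CPM in the shNC libraries, against 1544, 862 and 995 CPM in the shPgk1-labelled ones. The groups overlapped, with the lowest library in shNC and the highest among those labelled shPgk1. Since the same barcodes were chosen on related transcripts, the levels of the other markers are given here without a test.

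Of 17 label markers outside the rule, 15 were higher in members than in all other kept barcodes in 6 of 6 libraries. Of the 4750 genes with a mean of at least 20 CPM in members, 1015 were, which is 21.4%. The exceptions were Cacnb3, a calcium channel subunit, higher in 5 of 6 libraries, and Tnfrsf4, which encodes OX40, in 1 of 6. Ratios below are means of the 6 library log2 ratios with 5 CPM added. Il4i1, a secreted amino acid oxidase, had a log2 ratio of 4.01. Tbc1d4, a Rab GTPase-activating protein, had 4.30, and Samsn1, a signalling adaptor, 3.25. Fscn1 had a lower ratio of 2.05 ± 0.85 (SD over 6 libraries), beside a level of 164 CPM in keratin-high barcodes.

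**Figure D1:**
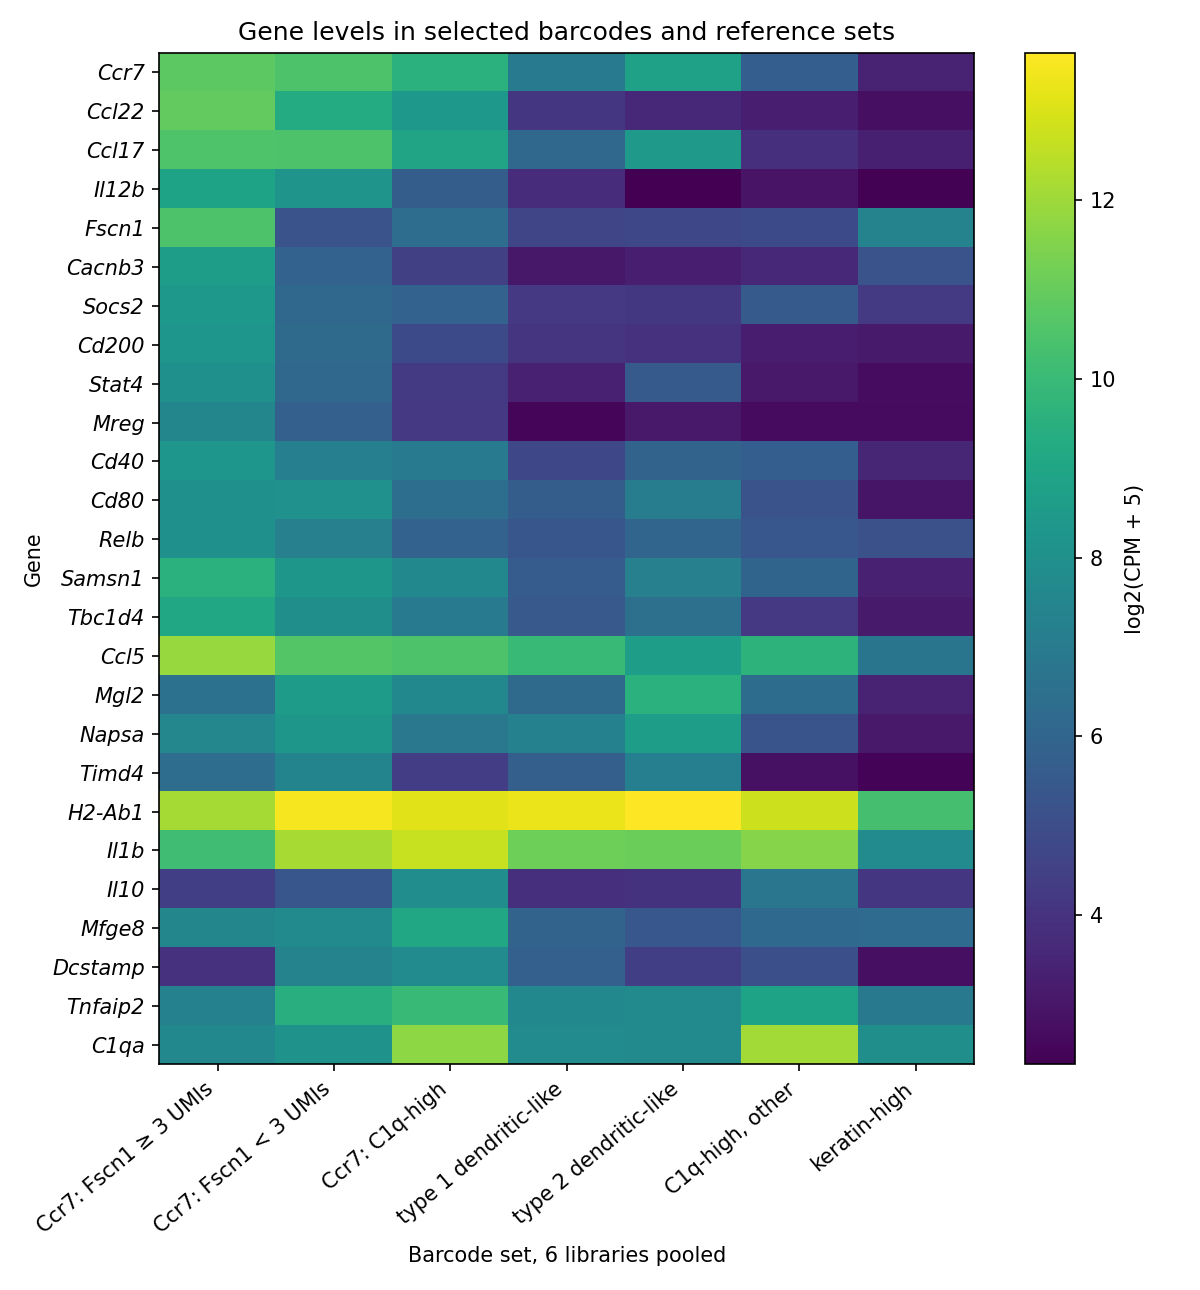
Levels of 26 genes (rows) as log2(CPM + 5) by colour, in 3 subsets of the members and 4 reference sets (columns), each summed over 6 libraries. Ccl22 is at 1953 CPM in the Fscn1-positive subset and Il10 at 228 CPM in the C1q-high one.

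The leading 30 genes by ratio to all other kept barcodes, among those with at least 100 CPM, held, after the marker genes, Ramp3 (a receptor activity-modifying protein, log2 ratio 4.11) and Mmp25, a membrane-anchored metalloproteinase (3.98). Further ones were Nr4a3 (an orphan nuclear receptor, 3.33), Ly75 (an endocytic receptor, 3.03) and Stat4 (a signal transducer of IL-12, 2.92). Serpinb9, an inhibitor of granzyme B, had a ratio of 2.96 and Bcl2a1d, a BCL2-family survival gene, one of 2.89. Bcl2a1d stood at 605, 702 and 566 CPM in the shNC libraries, against 834, 492 and 677 CPM in the shPgk1-labelled ones, and at 81.7 CPM in other kept barcodes. Cst3, which encodes cystatin C, reached 15716 ± 3739 CPM (SD over 6 libraries).

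Of 13 costimulatory genes 11 were higher than in other kept barcodes in 6 of 6 libraries. Cd80 stood at 122, 143 and 210 CPM in the shNC libraries, against 233, 150 and 236 CPM in the shPgk1-labelled ones. Cd40, the receptor through which T cells license dendritic cells, stood at 188, 167 and 129 CPM and at 165, 149 and 250 CPM. Every library lay above the 21.2 CPM of other kept barcodes for Cd40. Tnfsf18 had no UMI in any member. Of the genes of immune regulation 7 of 20 were higher in 6 of 6 libraries, beside 21.4% of all genes with at least 20 CPM. Cd274, which encodes PD-L1, ran from 307 to 531 CPM and Pdcd1lg2, which encodes PD-L2, from 79.6 to 176 CPM.

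In the NF-kB list 21 of 27 genes were higher than in other kept barcodes in 6 of 6 libraries, beside 21.4% of all genes with at least 20 CPM. Relb, a subunit of the non-canonical pathway, stood at 100, 186 and 107 CPM in the shNC libraries, against 178, 79.6 and 166 CPM in shPgk1-labelled libraries. Rela, the p65 subunit, did not separate, with a log2 ratio of 0.04 and 4 of 6 libraries above. Nfkb2, with the motif described above in 2 of its 3 windows, which overlap and share a site, had a ratio of 0.62. Of the migration and cytoskeleton genes 16 of 20 were higher, among them Marcksl1 (1.96) and Mreg, which encodes melanoregulin (3.46). Tmsb10, a thymosin, was the other way, with a ratio of −0.41 and 0 of 6 libraries above. Of the transcription factors of mature dendritic cells 16 of 20 were higher. They included Cbfa2t3 (3.13), Zfp366 (3.08), Etv3 (2.46) and Irf8 (2.23).

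Of 22 chemokine genes in the files 5 were higher in 6 of 6 libraries, a share near the 21.4% of all genes: Ccl17, Ccl22, which the rule used, Ccl5, Cxcl16 and Ccl9. Ccl5, a chemokine that attracts T cells, stood at 4309, 1339 and 1501 CPM in the shNC libraries, against 2368, 1437 and 1974 CPM in the shPgk1-labelled ones, so that shNC library 1 stood apart from the others. Ccl2, Ccl6 and Ccl12 were above other kept barcodes in 0 of 6 libraries, and Ccl19 had no UMI in members. Of 22 cytokine genes 4 were higher in 6 of 6, Il12b of the rule among them, again near the share of all genes. Il12a, which encodes the partner of p40 in IL-12, had a mean of 0.904 CPM and Il23a, the partner of p40 in IL-23, 26.5 CPM. Ebi3, a subunit of IL-27 and IL-35, had 70.2 ± 11.5 CPM.

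Other conventional dendritic-like barcodes gave a nearer comparison. These were 163 kept barcodes, 85 with 2 or more UMIs of Xcr1 and Clec9a (type 1) and 78 with 2 or more of Cd209a (type 2). They had MHC class II transcripts, no T or B cell gene, and C1qa, C1qb and C1qc below 2000 CPM together, a limit set after the data were seen. Against them 451 of 4750 genes (9.49%) were higher in members in 6 of 6 libraries and 407 (8.57%) lower. In the NF-kB list 17 of 27 were higher and 0 lower, and among costimulatory genes 8 of 13 were higher and 1, Cd48, lower. Leading genes were Ccl22 (log2 ratio 6.04), Il12b (4.6), Fscn1 (4.10), Cacnb3 (3.97), Zmynd15 (3.89), Cd200 (3.35) and Socs2 (3.11), which encodes a brake on cytokine signalling. C1qa is on the same list with 2.73, but the C1q limit on the reference barcodes fixes that direction. Ccr7, which the rule used, was 5.71-fold higher by the mean log2 ratio.

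Markers of the immature dendritic subsets went the other way. Of 12 type 1 markers 8 were lower than in the other dendritic-like barcodes in 6 of 6 libraries. Xcr1, Clec9a and Cd209a defined those barcodes, so their differences are fixed by it, and without Xcr1 and Clec9a 7 of 10 were lower. Of genes not used there, Naaa had a log2 ratio of −2.81, Wdfy4, needed for cross-presentation, −2.88 and Itgae, which encodes CD103, −2.67. Genes that accompany the defining ones are raised in the reference barcodes by the same choice. Counts and ratios of subset markers are therefore a description only. Of 12 type 2 markers 5 were lower, Cd209a among them, and 1, Sirpa, was higher. Mgl2 was kept at 219 ± 84.8 CPM (SD over 6 libraries), with no constant direction. Of 15 MHC class II pathway genes 6 were lower and 2 higher. Ciita, the master regulator of MHC class II, had a ratio of −1.54, H2-DMb1, a peptide-loading chaperone subunit, −0.81, and H2-Ab1, a beta chain, −0.37.

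**Figure D2:**
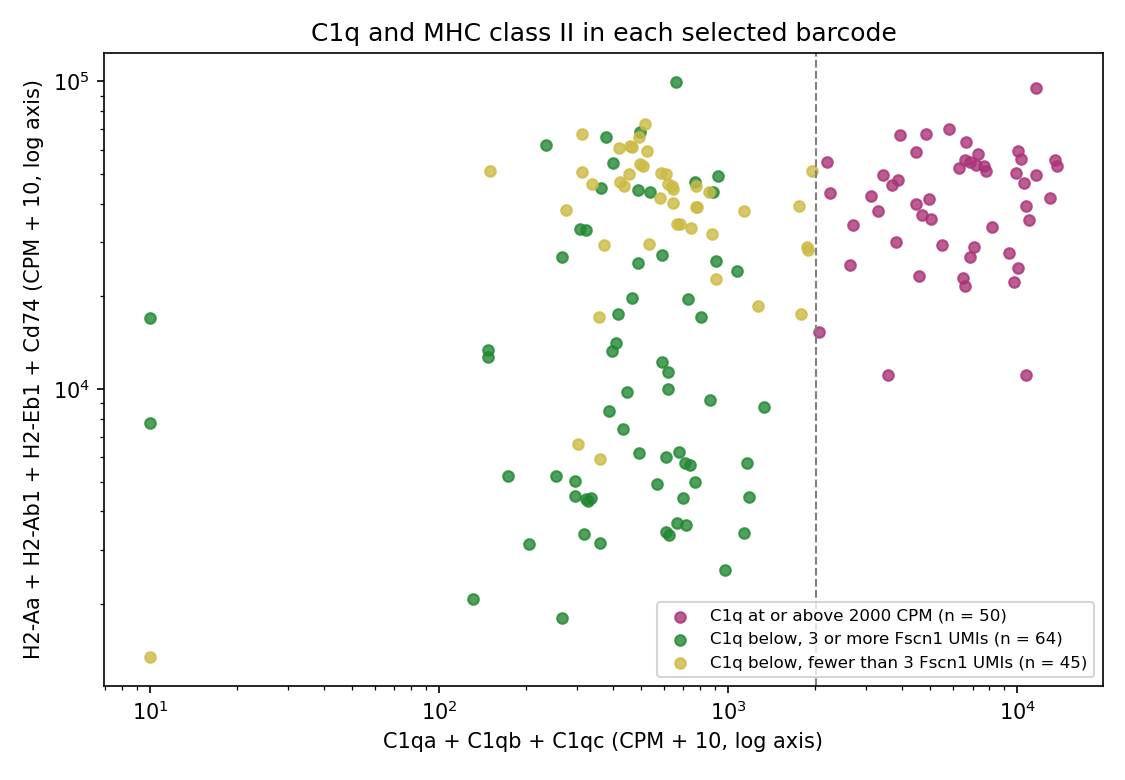
Each point is 1 of the 159 members, with summed C1qa, C1qb and C1qc on the x axis and summed MHC class II genes on the y axis (CPM + 10, log axes). The dashed line marks 2000 CPM of C1q, and the 64 Fscn1-positive barcodes spread down to low MHC class II.

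The members were not 1 kind of barcode. Split after the values were seen, and so without a test, 50 of 159 (31.4%) had at least 2000 CPM of C1qa, C1qb and C1qc, which encode a complement protein of macrophages. Of the other 109, 64 had 3 or more Fscn1 UMIs and 45 had fewer. Only 8 of the 159 lay between 1500 and 2500 CPM of C1q. By library the C1q-high barcodes numbered 12, 9 and 3 in shNC and 3, 13 and 10 in shPgk1-labelled libraries, so the makeup of members varied within both groups. In the pooled counts of the C1q-high barcodes Fscn1, Cacnb3 and Cd200 were low and macrophage genes high, though 19 of the 50 held an Fscn1 UMI. These barcodes are therefore called here by their C1q level only.

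The 64 Fscn1-positive barcodes carried the mature markers at their highest pooled levels. Ccl22 was at 1953 CPM, Fscn1 at 1444 CPM, Cacnb3 at 407 CPM, Socs2 at 329 CPM, Cd200 at 309 CPM and Ccl5 at 3871 CPM. Fscn1 defined this subset, so its level there is fixed. Il12b was detected in 33 of them (51.6%) and Ccl17 in 56 (87.5%). Their median MHC class II level, the sum of H2-Aa, H2-Ab1, H2-Eb1 and Cd74, was 8958 CPM (quartiles 4483 and 25843), against 44561 CPM in other conventional dendritic-like barcodes and 5043 CPM in keratin-high ones. Apoe, a lipid carrier of macrophages, was at 1005 CPM, close to the 1085 CPM in keratin-high barcodes.

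The 45 barcodes with fewer than 3 Fscn1 UMIs and low C1q kept a high median MHC class II level of 43764 CPM. Ccl17 was at 1442 CPM in them, near the 1454 CPM of the Fscn1-positive barcodes, and Ccl22 at 629 CPM. Mgl2, a lectin of type 2 dendritic cells, was at 375 CPM against 89.0 CPM, Timd4, a phosphatidylserine receptor, at 167 CPM against 78.6 CPM, and Napsa, an aspartic protease, at 316 CPM against 183 CPM. Il12b was detected in 20 of 45 (44.4%).

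The 50 C1q-high barcodes had the genes of the rule at lower levels, with Ccr7 at 749 CPM, Ccl22 at 327 CPM and Il12b at 45.3 CPM. Fscn1 was at 77.4 CPM, under the 164 CPM of keratin-high barcodes. Their median MHC class II level was 42768 CPM. Il1b was at 6663 CPM, Il10 at 228 CPM, Mfge8, a bridge for uptake of dying cells, at 558 CPM and Dcstamp, a cell fusion gene, at 214 CPM. In the other 9875 C1q-high kept barcodes Il1b was at 3062 CPM, Il10 at 103 CPM, Mfge8 at 68.2 CPM and Dcstamp at 28.9 CPM. C1qa was at 3380 CPM and Apoe at 9157 CPM, against 4304 and 18852 CPM there. The median depth of the 50 C1q-high members was 19894 UMIs, against 11603.5 UMIs in Fscn1-positive barcodes. It was 16425 UMIs in members with low C1q and fewer than 3 Fscn1 UMIs, and 15850 UMIs in all members. Scrublet, which scores likely doublets, marked 0 of the 50 and 1 of the 159. Droplets with more than 1 cell were not tested in another way.

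Monocyte and macrophage markers were high, with the 16 genes summing to 6037 to 16619 CPM per library in members, against 8514 to 15796 CPM in other kept barcodes and 2362 to 7422 CPM in other conventional dendritic-like ones. Pooled, they summed to 21719 CPM in C1q-high members and 3643 CPM in the rest. Markers of most further cell types were lower, but not of all. Of 15 T and NK cell markers 3 were at 0, those barred by the rule, and the summed level was 18.8 to 68.6 CPM per library against 167 to 321 CPM in other kept barcodes. Epithelial markers summed to 546 to 1370 CPM, against 6805 to 8820 CPM in keratin-high barcodes, with Cldn7 at 0. Of 9 plasmacytoid markers Siglech and Ly6d were at 0, but the pooled sum was 205 CPM, against 184 CPM in other kept barcodes. Pooled Langerhans cell markers summed to 467 CPM, against 444 CPM there and 707 CPM in keratin-high barcodes. Mfge8, 1 of these 4 genes, alone averaged 363 CPM over the 6 libraries of members. Innate lymphoid type 3 markers were higher in members, at 55.8 to 144 CPM per library, against 28.9 to 48.1 CPM in other kept barcodes. Neutrophil markers summed to 197 to 347 CPM in shNC and to 25.4 to 95.6 CPM in shPgk1-labelled libraries, without overlap. Fibroblast markers summed to 540 to 849 CPM and to 248.5 to 347 CPM, also without overlap.

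The share of members among kept barcodes did not separate the groups. It was 0.416, 0.4998 and 0.219% in the shNC libraries, against 0.343, 0.337 and 0.446% in the shPgk1-labelled ones. Wilson 95% intervals, which cover counting error only, ran from 0.133 to 0.361% for the lowest library and from 0.352 to 0.708% for the highest, both of them shNC. The means were 0.378 ± 0.144% and 0.375 ± 0.0616%, a difference of −0.00282 percentage points (two-sided exact permutation test, n = 3 and 3, p = 1). The sign of this difference changed under several settings. Without shNC library 3 it was −0.0823 points and without shNC library 2 it was 0.0579 points.

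**Figure D3:**
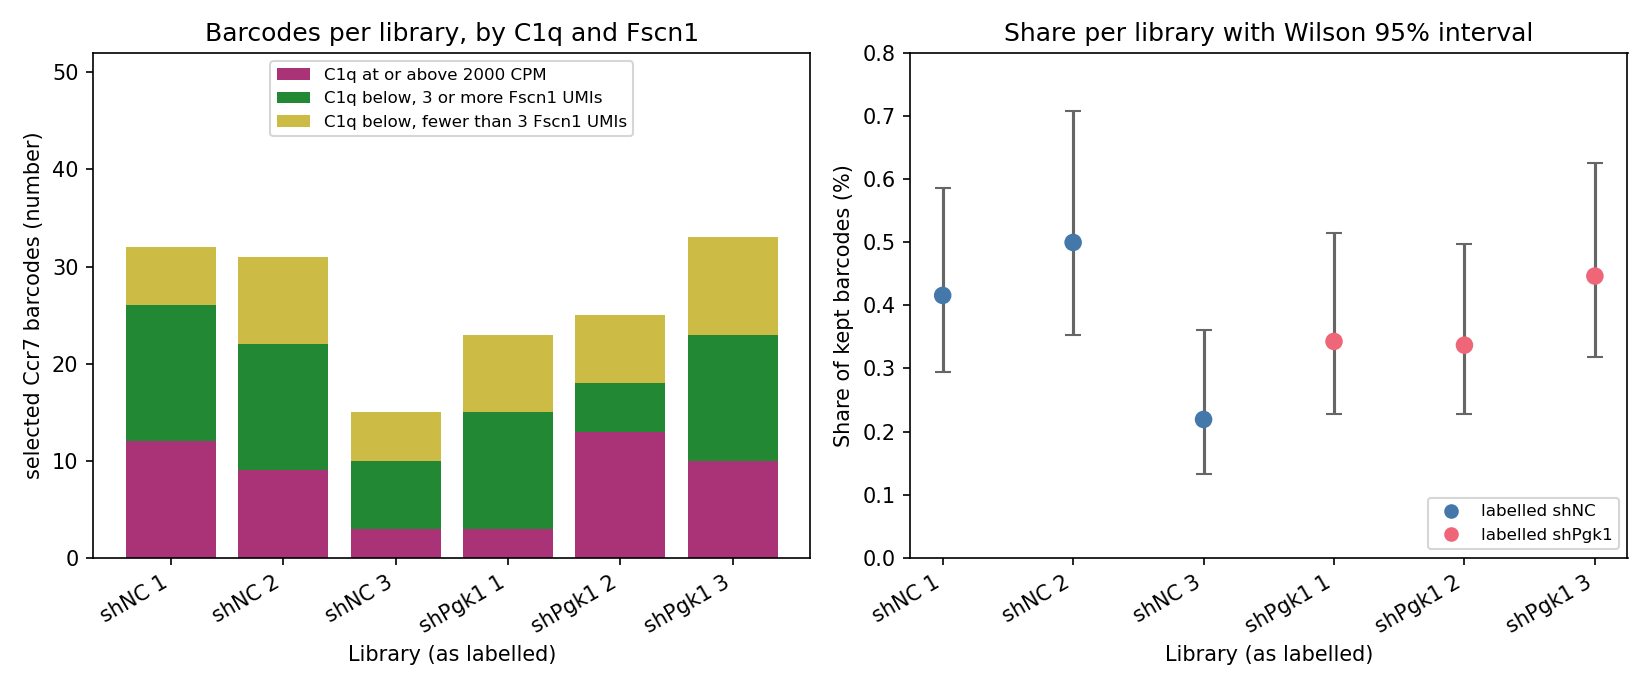
Left, the number of members in each library, stacked by C1q and Fscn1. Right, their share of kept barcodes in percent with Wilson 95% intervals, between 0.219 and 0.4998% in shNC (blue) and between 0.337 and 0.446% in shPgk1-labelled libraries (red).

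Detection of Il12b and Ccl17 was compared after each member was thinned to 3000 UMIs, which left out 4 shNC members and 3 of the other group. Il12b was found in 27.3, 19.9 and 20.8% of members in shNC and in 35.9, 21.8 and 28.6% in shPgk1-labelled libraries. The groups overlapped, with means of 22.7 ± 4.05 and 28.8 ± 7.06%, given without a test since Il12b is part of the rule. Ccl17 was found in 53.0, 59.4 and 53.7% and in 67.3, 59.2 and 58.3% (means 55.4 ± 3.48 and 61.6 ± 4.93%, exact permutation test, p = 0.3). Without thinning the Ccl17 shares were 74.2 ± 0.833 and 72.6 ± 4.05%. The unthinned Il12b shares were 37.6 ± 4.30 and 44.8 ± 16.4%.

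Between the groups, 5 of the 5103 genes tested in members passed edgeR's quasi-likelihood test at an adjusted p of 0.05, all 5 lower in shPgk1-labelled libraries (0.098% of genes tested) and 0 higher, with 287 genes at an unadjusted p below 0.05. DESeq2 called 8, all lower, 3 of them shared. The 5 were Iigp1, Dnah2, AY036118, Gm14015 and Gm42418, and all had the same adjusted p of 0.0472. Gm14015 and Gm42418 are outside the rule for named genes and were named after their values were seen. None of the 5 stayed past the threshold in every alternative, as given in the closing section. The median log2 fold over all genes tested was 0.00.

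Iigp1, an interferon-inducible GTPase, was at 54.6, 50.8 and 60.05 CPM in the shNC libraries, against 12.7, 8.85 and 11.1 CPM in shPgk1-labelled libraries. The log2 fold was −2.38 ± 0.37 (SE, edgeR, adjusted p = 0.0472). Most of its UMIs came from few barcodes: 1 barcode held 11 of 29 UMIs in shNC library 1, 1 held 19 of 27 in library 2 and 1 held 10 of 14 in library 3. In keratin-high barcodes Iigp1 was at 45.3 ± 12.6 and 42.5 ± 6.85 CPM, with overlap. Dnah2, a dynein heavy chain gene, was at 56.5, 80.9 and 38.6 CPM and at 15.2, 1.77 and 1.585 CPM (−3.555 ± 0.60, edgeR adjusted p = 0.0472). A single barcode held 26 of 30 of its UMIs in shNC library 1 and another 28 of 43 in library 2. Without the libraries in turn this call was lost in 5 of 6 fits.

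Gm14015, a predicted gene, was at 41.4, 24.5 and 21.5 CPM in shNC and had 0 UMIs in members of shPgk1-labelled libraries. With a floor of 3 counts over that group it was at least 15.4-fold lower. In keratin-high barcodes it was at 27.3 ± 8.33 and 0.0588 ± 0.0613 CPM, so this difference was also seen outside the members. Gm42418 and AY036118 are ribosomal-RNA-like, so their counts are uncertain. They were at 56550 ± 3467 and 42600 ± 3224 CPM, and at 28210 ± 3322 and 18820 ± 2675 CPM. In keratin-high barcodes both were likewise lower in shPgk1-labelled libraries without overlap.

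**Figure D4:**
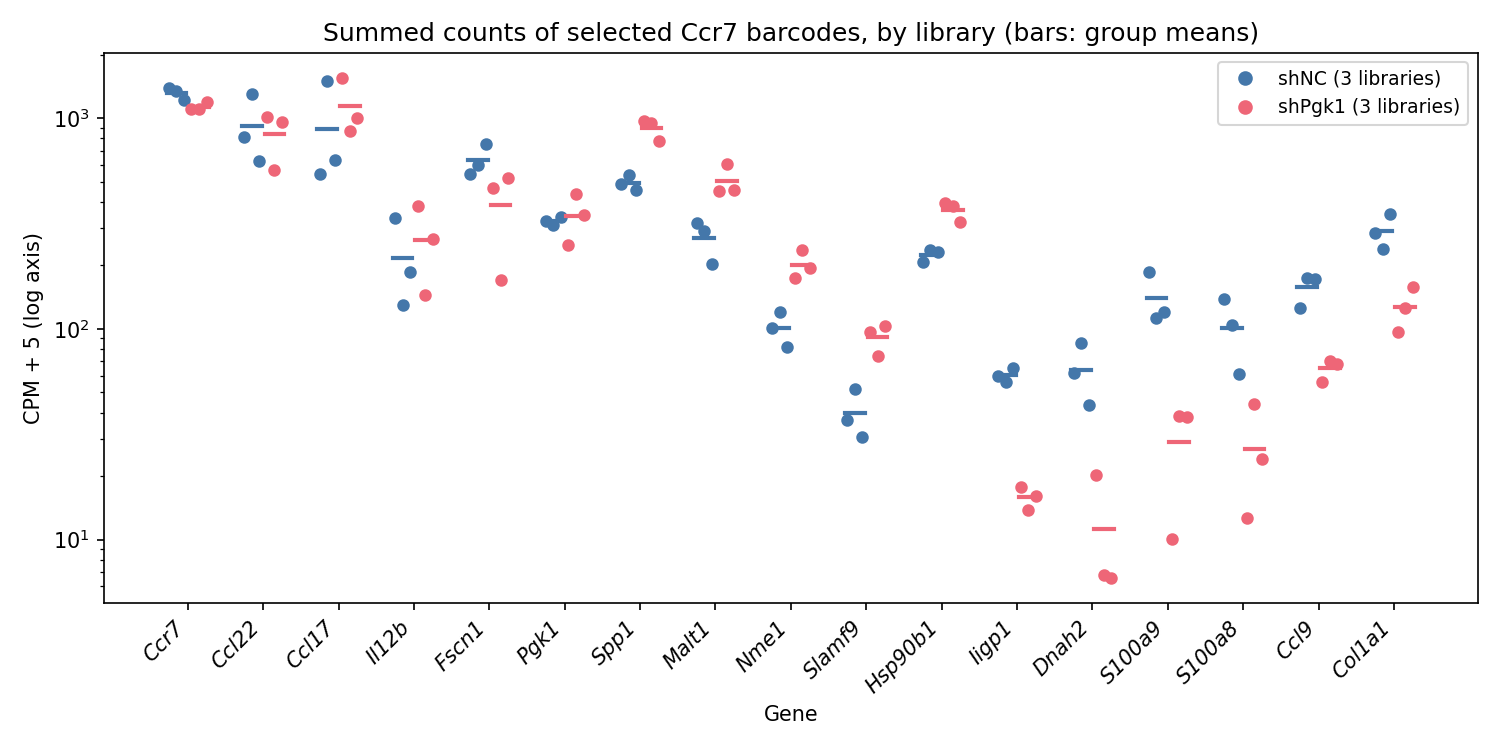
Points are the 6 libraries' summed member counts as CPM + 5 (log axis) for 17 genes, blue for shNC and red for shPgk1-labelled libraries, and bars are group means. Iigp1 and Dnah2 lie apart between groups, while Ccl22, Ccl17 and Il12b overlap. Ccr7, which the rule used, and Fscn1, which was uncalled, were lower in shPgk1-labelled libraries without overlap.

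Ccr7, Ccl22 and Il12b chose the members, so their log2 folds of −0.28 ± 0.14, −0.19 ± 0.30 and 0.21 ± 0.42 (SE) are given without a test. Ccl17, which the rule did not use, had 0.27 ± 0.46 (edgeR adjusted p = 0.972). Fscn1 was at 537, 593 and 746 CPM in shNC, against 462, 165 and 513 CPM in shPgk1-labelled libraries, without overlap. Its log2 fold was −0.78 ± 0.36 and uncalled (edgeR adjusted p = 0.873). Pgk1 had 0.03 ± 0.22 (edgeR adjusted p = 0.999). The 5 higher genes of smallest p at a mean of at least 50 CPM were uncalled. Spp1, which encodes osteopontin, was at 484, 531 and 450 CPM and at 966, 938 and 773 CPM (0.80 ± 0.17, edgeR adjusted p = 0.118). In library 1 labelled shPgk1 1 barcode held 219 of 381 Spp1 UMIs, and C1q-high members held 831 of 1399 in that group against 318 of 644 in shNC. In keratin-high barcodes Spp1 was higher without overlap too, at 1878 ± 150 and 2379 ± 152 CPM. Malt1, a paracaspase upstream of NF-kB, had 0.84, the nucleoside diphosphate kinase Nme1 0.95, Slamf9 1.18 and the chaperone Hsp90b1 0.66 on the log2 scale.

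By edgeR no list had a member past the threshold, while DESeq2 called Ccl9, S100a9, S100a8 and Col1a1 of the lists. Of 26 tested NF-kB genes the median log2 fold was 0.02, and 14 were positive, beside a median of 0.00 and 50.03% positive over all genes. Of 8 costimulatory genes it was −0.11, of 18 migration genes −0.16 with 2 positive, and of 13 MHC class II genes 0.01. Of 19 MHC class I genes it was −0.26 with 3 positive, and of 17 immediate early genes −0.39 with 6 positive. Each of these lists had 4 genes at an unadjusted p below 0.05. Of 14 interferon-stimulated genes the median was −0.77 with 1 positive, and 6 had an unadjusted p below 0.05, beside 287 of all 5103 genes tested. Isg15 was at 1411, 1132 and 1197 CPM and at 1139, 612 and 670 CPM, with overlap. Bst2, a tetherin, was at 437, 474 and 669 CPM and at 314, 366 and 363 CPM, without overlap. Of 18 chemokine genes the median was −0.38. Ccl9 was at 121, 169 and 167 CPM and at 50.7, 65.5 and 63.4 CPM, and was called by DESeq2 and not by edgeR (−1.39). Ccl9 also differed without overlap in keratin-high barcodes, at 15.6 ± 1.05 and 7.08 ± 0.979 CPM. Irf4, a transcription factor of type 2 and mature dendritic cells, was at 9.42, 22.6 and 21.5 CPM and at 68.5, 37.2 and 34.9 CPM (1.33, uncalled).

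Genes of neutrophils and fibroblasts were among the lower ones. S100a9, a calprotectin subunit, was at 181, 107 and 116 CPM in the shNC libraries, against 5.07, 33.6 and 33.3 CPM in shPgk1-labelled libraries (log2 fold −2.46, uncalled by edgeR and called by DESeq2). In keratin-high barcodes it was at 191 ± 20.3 and 60.6 ± 9.25 CPM. Col1a1, a collagen chain, was at 281, 233 and 347 CPM and at 91.3, 120 and 154 CPM in members, and at 784 ± 166 and 411 ± 125 CPM in keratin-high barcodes. Both genes were thus higher in keratin-high barcodes than in members in both groups, and their groups did not overlap in either kind of barcode. The part of free RNA in these differences was not tested.

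Whether a group difference was particular to members was tested against the other conventional dendritic-like barcodes. With the C1q limit of 5 UMIs fixed in the design, shNC library 3 held 2 such barcodes, fewer than the 10 required, so this fit was not made. With the limit of 2000 CPM there were 50, 36 and 11 in shNC and 20, 18 and 28 in shPgk1-labelled libraries. In that fit 1 of 5956 genes (0.0168%) passed, Il1b, which encodes interleukin 1 beta, with 266 at an unadjusted p below 0.05. In members Il1b was at 4825, 3428 and 3281 CPM in the shNC libraries, against 2774, 7082 and 4326 CPM in the shPgk1-labelled ones, and in the other dendritic-like barcodes at 3159, 2543 and 1837 CPM and at 962, 2092 and 1338 CPM. The groups overlapped in both kinds of barcode. The reference barcodes were limited in C1q and the members were not. C1q-high members, with Il1b at 6663 CPM, were 12 of 32, 9 of 31 and 3 of 15 members in shNC and 3 of 23, 13 of 25 and 10 of 33 in the other group, and their part in this result was not tested. The difference between the log2 folds was 1.03 ± 0.15 (SE, edgeR adjusted p = 0.0279), and it no longer passed without library 3 labelled shPgk1, without library 2 of that group, or without shNC library 1 or 2. For Iigp1, Dnah2 and the marker genes outside the rule no difference in fold passed in this fit. Dnah2 had a difference of −4.48 ± 1.155 (SE, edgeR adjusted p = 0.728), which passed in the fit without library 1 labelled shPgk1. Differences of Ccr7, Ccl22 and Il12b are not read, since these genes chose the members.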

How the data were processed

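The authors deposited 1 matrix of whole UMI counts per library, made with PISA 0.12 per the file headers. The submitters' processing notes name Seurat 4 and the human build GRCh38, but the gene names are mouse. No aligner is given in the sources used here. Of 28649 names, 97.6% are in a mouse annotation. The members and the gene lists were chosen with earlier results of these data known. Barcodes with fewer than 300 genes or over 20% mitochondrial UMIs were dropped. Counts were summed over members per library and tested with edgeR's quasi-likelihood test (TMM, filterByExpr, Benjamini-Hochberg adjustment at 0.05), with DESeq2 as an alternative. Shares were compared by two-sided exact permutation tests over libraries. Doublets were scored with Scrublet at an expected rate of 0.06 and a limit of 0.25. Its own threshold marked 1 barcode in 4 of the 6 libraries, so the score limit was used. Named genes were Pgk1, the 4 markers, up to 15 called genes in each direction with at least 20 CPM (Gm-numbered names left out), and 5 uncalled ones of smallest p with at least 50 CPM. The tests were also run on simulated counts, which for the difference in fold had the same spread for all genes. Recovery and false calls are not given here, so the run is no measure of power in these data.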

Additional observations from a re-analysis of the deposited data

Results flagged for a closer look

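The fold of Il1b between the groups differed between members and the other conventional dendritic-like barcodes by 1.03 on the log2 scale, by an interaction term in edgeR (adjusted p = 0.0279, n = 3 and 3 libraries). The call held in 2 of the 6 fits that left out 1 library. In members Il1b averaged 3844 ± 852 CPM in the shNC libraries, against 4727 ± 2182 CPM in the shPgk1-labelled ones, while in keratin-high barcodes it averaged 305 ± 68.9 and 180 ± 31.3 CPM. The reference barcodes, a set defined after the data were seen, were limited in C1q, whereas C1q-high barcodes ran from 3 of 23 members in library 1 labelled shPgk1 to 13 of 25 in library 2. The macrophage genes Cd14 (1.54), Apoe (1.90), Ms4a7 (2.07) and C1qc (1.22) had differences of the same sign, none of them past the threshold. Their part in the Il1b result was not tested.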

How the results depend on the processing

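The difference in the share of members had no constant sign. Leaving out 1 library at a time gave −0.0823 to 0.0579 percentage points. Limits of 3 Ccr7 and 5 Ccl22 and Il12b UMIs gave 0.00625, limits of 1 and 2 gave 0.00901, a mitochondrial limit of 10% gave 0.0011, and barcodes with a Ptprc UMI as denominator gave 0.205, while barcodes thinned to 5000 UMIs gave −0.0726. The difference in Ccl17 detection was −1.62 percentage points without thinning. The 5 genes called between groups became 0 or 1 when 1 library was left out, the 1 being Dnah2 without library 1 labelled shPgk1. DESeq2 called 8, RLE size factors 3, and no filter on low counts 44 (39 lower and 5 higher). A mean of at least 20 CPM, no members with a doublet score above 0.25, the stricter UMI limits, and leaving out mitochondrial and ribosomal-RNA-like genes gave 0 each. Sums thinned to the lowest total gave 1 (S100a9), and so did leaving out C1q-high members (Dnah2), an alternative chosen after seeing the data. With the replicate number as a block 0 genes passed, the lowest adjusted p being 0.328, and the share difference was −0.00282 (exact sign-flip test, p = 1). Same-numbered libraries had correlations of −0.140, −0.0835 and −0.0791 in their deviations over 2289 genes. Differently numbered ones ran from −0.0475 to 0.128. Values this near 0, from sums of few barcodes, cannot decide whether the numbers pair the samples. The test of the difference in fold gave 0 to 4 genes when 1 library was left out, 0 without library 3 labelled shPgk1 and 4 without library 1. Log2 folds changed sign as follows. Over the fits that left out 1 library each, Pgk1 ran from −0.18 to 0.23, Ccl22 from −0.39 to 0.18 and Il12b from −0.13 to 0.72, and Pgk1 was −0.0089 with the block. Il12b was −0.0090 without C1q-high members. Leaving out members with 5 C1q UMIs, or 3 of keratin and Epcam, left 1 to 7 barcodes per library, a single one in shNC library 3 and in library 2 labelled shPgk1, and 339 genes to test with 0 called, and gave Ccr7 0.25, Ccl22 0.13, Gm42418 0.0081, Spp1 −0.16 and Jun 0.55. The cause of these changes was not tested. The lowest summed depth was 233147 counts, in shNC library 3 with 15 members.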
